A study of Rattus norvegicus with 3 samples.

Results

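The IP3 receptors, ryanodine receptors and calcium pumps are the channels and transporters that move calcium between the cytosol, the endoplasmic reticulum and the outside of the cell. The list holds Itpr1, Itpr2, Itpr3, Ryr1, Ryr2, Ryr3, Atp2a2, Atp2a3, Atp2b1 and Atp2b2. These 10 genes were chosen by name while earlier ratios of the same arrays were known. In those ratios Itpr2 was among the lowest contralateral to ipsilateral, so its ratios are given here as a description. Of the 10 genes, 8 had a probe that mapped to them, out of 16654 genes that could be named. Ryr1 and Ryr3 had no probe that mapped to them and were not analysed here.

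The tissue was cerebellar cortex of male Wistar rats, 9 weeks old, taken on day 2 after surgery. In the MCAO group the right middle cerebral artery was occluded for a time with a thread and then reperfused, and only rats within a set range of a neurological score were used. The contralateral sample was the left and the ipsilateral sample the right cerebellar cortex of the MCAO rats. The control sample was the left cerebellar cortex of sham rats, which had surgery on the right side without an occlusion. Each sample was bulk dissected tissue of 4 rats pooled into 1 RNA and hybridised to 1 array, with no sort of cells. There were no replicates, so each difference is a difference between 2 arrays, and the number of arrays limits its precision. Both MCAO pools came from the same group of rats.

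IP3 receptors release calcium from the endoplasmic reticulum when inositol trisphosphate, made by phospholipase C downstream of receptors at the cell surface, binds to them. Ryanodine receptors release it when cytosolic calcium itself rises, the SERCA pumps return it to the store, and the PMCA pumps expel it across the plasma membrane. Purkinje cells are known for an exceptional content of the type 1 IP3 receptor, and the synapses of parallel and climbing fibres on them use this store in long-term depression.

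Levels are log2 signals shifted so that the 75th percentile of every array is the same, and the levels of different probes are not compared as amounts of RNA. Where a list's signal is summed, the gene with the highest signal is named only as the largest single part of that sum, which need not be most of it. A spot counted as well above background when the scanner software called it so. Of 58717 spots this held for 42470 on the contralateral, 43028 on the ipsilateral and 43283 on the control array, and 0 were saturated. The value after ± is the error that the scanner software gives for the spots, combined over both arrays. A gene is called clearly read when each of its probes was well above background on each of the 3 arrays. A log2 ratio above 1 or below -1, a ratio of 2 or its inverse, is called a change. Both ratios to control use the same control array, so they are given side by side and are not independent of each other.

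The 8 genes were read by 12 probes and 39 spots. Of the 12 probes, 3 were printed several times and 9 had 1 spot. Itpr2, Itpr3, Atp2b1 and Atp2b2 were each read from 1 spot in all, and Ryr2 and Atp2a3 from 2 spots of different probes. This thin reading was common on the array, where 9060 of the 13356 named genes detected on at least 1 array (67.8%) were read from 1 spot.

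**Figure D1:**
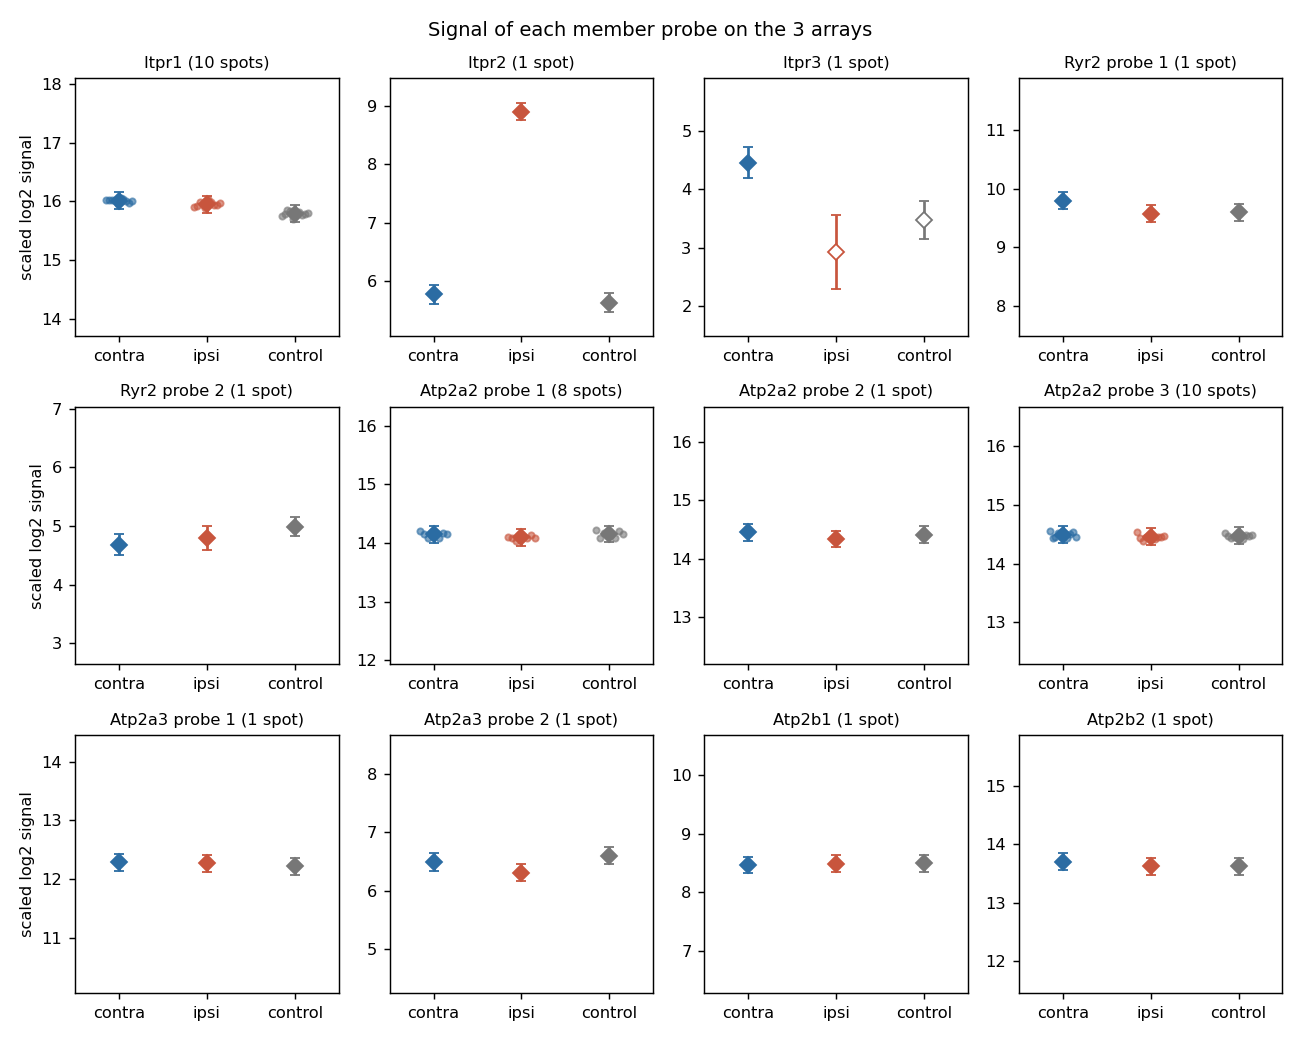
Scaled log2 signal (vertical axis, each panel spanning the same number of log2 units at its own height) of each of the 12 probes on the contralateral, ipsilateral and control arrays. Diamonds are probe means with the scanner error as bars, small points are single spots, and open diamonds are not well above background. Itpr2 is at 8.90 on the ipsilateral array against 5.77 and 5.63 on the others.

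Itpr1, the type 1 IP3 receptor and the main form in Purkinje cells, was read by 1 probe printed 10 times. It read 16.01 on the contralateral, 15.95 on the ipsilateral and 15.79 on the control array. Both MCAO arrays were slightly higher than control and close to each other. The log2 ratio was 0.22 ± 0.20 contralateral to control, 0.16 ± 0.20 ipsilateral to control (-0.37 with no scaling between arrays) and 0.06 ± 0.20 contralateral to ipsilateral.

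The 10 spots of Itpr1 had an SD of 0.03 on the contralateral, 0.05 on the ipsilateral and 0.04 on the control array. Spot by spot, the ratio to control ran from 0.18 to 0.27 on the contralateral side and from 0.11 to 0.24 on the ipsilateral side. The repeated spots therefore lay closer together than the scanner error, and they measure the printing and scanning of 1 RNA pool rather than the difference between rats. None of the ratios was a change by the threshold.

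Markers of Purkinje cells were read beside Itpr1. Of 15 listed genes 13 had a probe and all 13 were well above background on the 3 arrays. Their summed linear signal was 355694 on the contralateral, 384588 on the ipsilateral and 309946 on the control array. Most of each sum came from Aldoc, at 17.80, 17.97 and 17.53 in scaled log2 signal, so the sums mainly follow that gene. The median ratio was 0.14 contralateral to control, 0.10 ipsilateral to control and 0.02 contralateral to ipsilateral (the ratios to control were -0.01 and -0.44 with no scaling), and 0 of the 13 genes changed in any comparison. In bulk samples, fewer cells of a type and less RNA per cell cannot be told apart. The part of Purkinje cell content in the level of Itpr1 was not tested.

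Itpr2, the type 2 IP3 receptor, is the form best known from astrocytes and heart muscle and the most sensitive to IP3. It read 5.77 on the contralateral, 8.90 on the ipsilateral and 5.63 on the control array. The ipsilateral array alone was high, and the other 2 arrays lay within the scanner error of each other. All 3 readings were well above background.

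The log2 ratio of Itpr2 was 0.14 ± 0.22 contralateral to control (-0.01 with no scaling), 3.27 ± 0.22 ipsilateral to control and -3.12 ± 0.21 contralateral to ipsilateral. On the linear scale the ipsilateral signal was 9.62-fold the control signal and 8.71-fold the contralateral signal. Among 11254 clearly read named genes, Itpr2 was in place 2 from the top in the ipsilateral to control ratio and in place 1 from the bottom in the contralateral to ipsilateral ratio. In the contralateral to control ratio it was in place 2319 from the top, well inside the field.

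The direction of both large ratios was the same under every scaling tried, but their size was not. With normexp background correction and an offset of 50, the ipsilateral to control ratio was 2.13 and the contralateral to ipsilateral ratio was -2.03. With 50 added to the signal they were 2.40 and -2.33. Relative to the median of the detected named genes, the ipsilateral to control ratio of Itpr2 ran from 2.00 to 3.27 over the settings, and the contralateral to ipsilateral ratio from -3.12 to -1.95.

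A single spot gave all of this, so its pixels and its surroundings were read. The processed linear signal of the spot was 57.7 ± 6.34 on the contralateral, 386 ± 38.7 on the ipsilateral and 58.0 ± 6.41 on the control array. The median pixel signal was 84, 336 and 87, and the local background was 27, 28 and 24 against array medians of 33, 31 and 30.

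The extent of the Itpr2 spot, a measure of its size, was 30.0 on the contralateral, 27.1 on the ipsilateral and 29.1 on the control array, against a median of 26.2 on each. The software marked its background as an outlier on the contralateral array, as it did for 6.98% of the spots there, and did not mark the spot itself on any array. A mark as a population outlier needs copies to compare with. Of 43279 features whose probe had 1 copy, 0 carried such a mark, against 1175 of 19697 features with several copies, so its absence says nothing about the Itpr2 spot.

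The features around the spot were uneven on the ipsilateral array. Within 2 rows and 2 columns of it lay 19 other features, of which 6 had an ipsilateral to control ratio above 1 and 1 had a contralateral to control ratio above 1. Over 62975 features of the array these shares were 11.4% and 4.06%. Spots for synthetic spike-in RNAs were among the 6, and over the 3360 such spots of the array the shares were 29.8% and 8.18%. Bright and dim neighbours differed. Of the 13 neighbours well above background on the control array 1 was above 1 in the ipsilateral ratio, with a median of 0.10, while of the 6 dim neighbours 5 were above 1, against 31.5% of all dim features.

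A spot for a synthetic spike-in RNA, 1 of the 6 features nearest to Itpr2, read 3.46 on the contralateral, 9.90 on the ipsilateral and 2.70 on the control array. The same spike-in was printed 34 more times, and those copies read between 1.68 and 4.71 on the ipsilateral array, with a median of 3.65. The spot beside Itpr2 was thus above all its copies. Its control and contralateral readings were not well above background.

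Another of the 6 nearest features, a probe with no gene name, read 1.31 on the contralateral, 9.76 on the ipsilateral and 2.41 on the control array, the first and last of these not well above background. Its spot extent on the ipsilateral array was 18.2, below the median of 26.2. By these readings both had a larger ipsilateral to control ratio than Itpr2, as they would with the control array at 3.12, its lowest level well above background. The exact size of such a ratio is not known. Dim features were counted by their readings too. The ratio of Itpr2 was exceeded by 207 of the 62975 features (0.329%), and by 49 of the 3360 spike-in spots among them (1.46%). Having at least 2 such features among the nearest 6 was seen at 124 of 58717 spots (0.211%) in the ipsilateral ratio. The number of 6 nearest features was chosen after the values were seen.

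Other spike-in spots in the window were 3, and each was higher on the ipsilateral array. They read 3.19, 4.20 and 4.40 there against 1.20, 1.22 and 1.20 on the control array. On the ipsilateral array the 34 other copies of each had medians of 1.67, 2.39 and 1.63, and 2, 1 and 2 of them read above the copy beside Itpr2. The software marked the spike-in spot at 9.90 and those at 4.20 and 4.40 as outliers on the ipsilateral array only, and the spot at 3.19 was not well above background there. The named neighbours well above background read alike on the arrays, with an ipsilateral to control ratio of 0.18 for Rpl36a, 0.10 for Oxa1l, 0.13 for Tm2d2, -0.02 for Bzw2, -0.09 for Tcf3 and -0.06 for Ppig. An unnamed neighbour, well above background on all 3 arrays, did not, at 5.33 on the contralateral, 6.06 on the ipsilateral and 3.78 on the control array, an ipsilateral to control ratio of 2.28, and another read 0.68 in that ratio. The neighbours' part in the reading of Itpr2 was not tested.

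**Figure D2:**
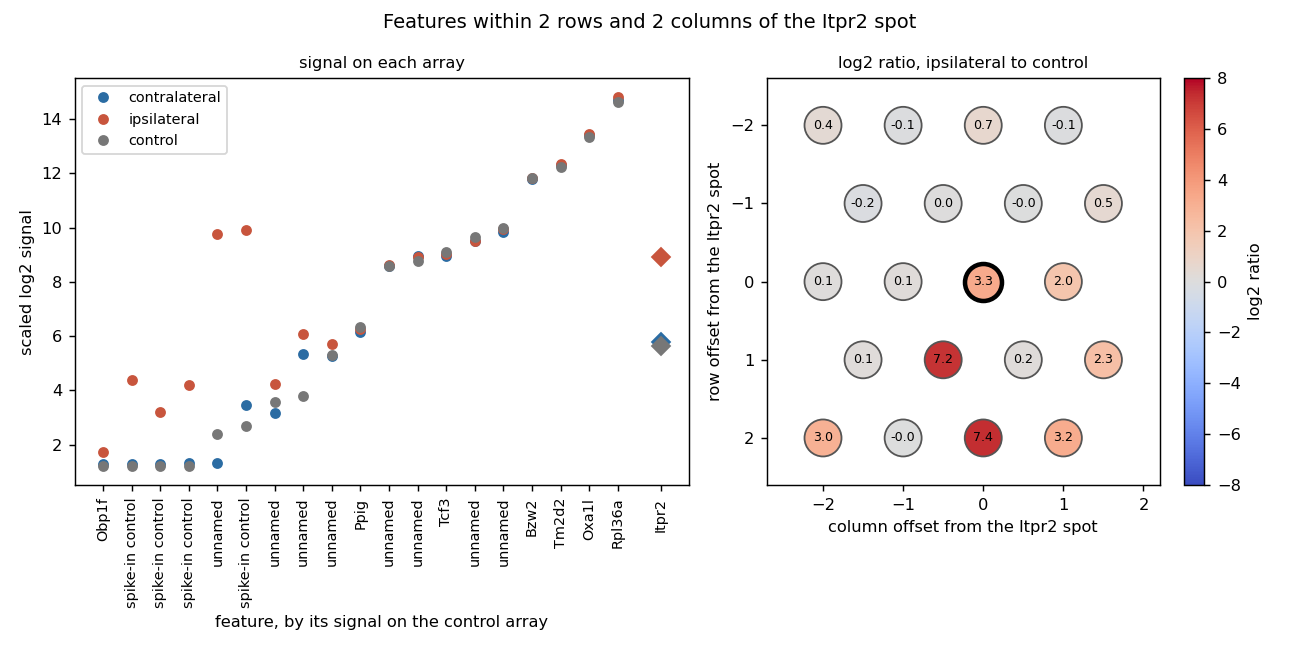
Left, scaled log2 signal of the 19 features within 2 rows and 2 columns of the Itpr2 spot, ordered by their signal on the control array, with Itpr2 as diamonds at the right; colours are the arrays. Right, ipsilateral to control log2 ratio of the same features at their place on the printed grid, with Itpr2 ringed in black; a spike-in spot at 9.90 and an unnamed spot at 9.76 on the ipsilateral array stand out.

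Markers of astrocytes and Bergmann glia, the cells in which Itpr2 is best known in brain, were read beside it. All 12 listed genes had a probe and were well above background on the 3 arrays, with a summed signal of 80595 on the contralateral, 80896 on the ipsilateral and 88675 on the control array. The highest signal in the sum came from S100b on both MCAO arrays and from Aqp4 on the control array. Their median ratio was -0.03 contralateral to control, -0.06 ipsilateral to control and 0.06 contralateral to ipsilateral, and 0 of 12 changed. The contralateral and ipsilateral ratios to control were lowest for Gfap, at -0.73 and -0.66, and highest for Gdf10, at 0.39 and 0.27. The part of these cells in the level of Itpr2 was not tested.

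By the distance between pairs of ratios to control, over 3 arrays, the 5 clearly read named genes closest to Itpr2 were Vdr, Scin, Or2d2, Cistr and Rassf6. Vdr, the vitamin D receptor and the closest of these at 0.71, read 3.99 on the contralateral, 6.62 on the ipsilateral and 4.04 on the control array. Its ratios were -0.04 contralateral to control, 2.58 ipsilateral to control and -2.63 contralateral to ipsilateral. The next, Scin, lay at a distance of 1.12 with ratios to control of 0.64 and 2.26. Or2d2, Cistr and Rassf6 lay at 1.34, 1.36 and 1.38. All 5 were read from 1 spot each, as Itpr2 was, and Scin, Or2d2 and Cistr each had 1 of their 6 nearest features above the ratio of Itpr2.

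**Figure D3:**
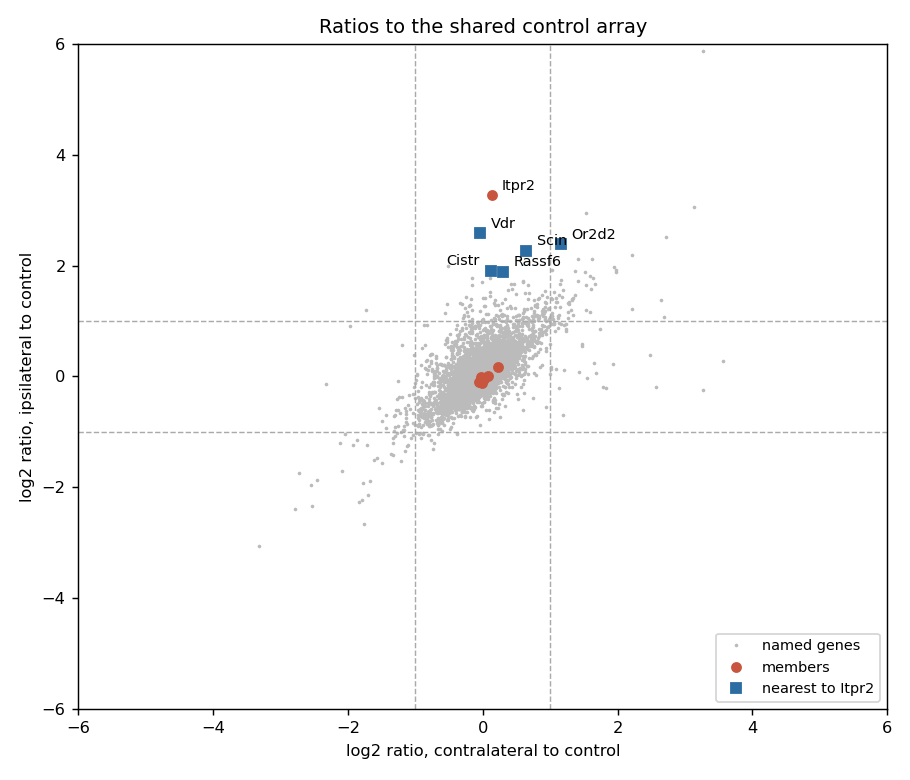
Log2 ratio contralateral to control (horizontal) and ipsilateral to control (vertical) of 11254 clearly read named genes; red circles are the 7 calcium channel and pump genes among them, blue squares the 5 genes nearest to Itpr2, and dashed lines the threshold. The slant of the cloud includes the control array that both axes share, and Itpr2 sits apart at 0.14 and 3.27.

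Itpr3, the type 3 IP3 receptor, is best known from epithelial and other non-neuronal cells. It read 4.45 on the contralateral, 2.93 on the ipsilateral and 3.47 on the control array. Only the contralateral reading was well above background, and the lowest level that counted as such was 3.63 on the ipsilateral and 3.12 on the control array. The ratios of these readings were 0.98 ± 0.42 contralateral to control (0.21 with normexp, 1.01 with quantile normalization) and 1.53 ± 0.68 contralateral to ipsilateral (-0.18 with normexp, 2.18 with quantile normalization).

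With the dim array set to the higher of its own reading and its lowest level well above background, the contralateral signal of Itpr3 was 1.98-fold the control signal and 1.77-fold the ipsilateral signal. These folds hold for the main setting and are no lower limits, since the normexp ratios were smaller or reversed. No ratio is given between the ipsilateral and control arrays, since neither reading was well above background. The count of genes above 1 in the contralateral to ipsilateral ratio rests on Itpr3 alone, and it was 0 with normexp, with 50 added to the signal, and among clearly read genes. Of the 3 IP3 receptors, then, Itpr1 did not change, Itpr2 was high on the ipsilateral array from 1 spot, and Itpr3 was near background on 2 of 3 arrays.

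Ryr2, the ryanodine receptor of heart muscle and the form most abundant in brain, was the only ryanodine receptor to which a probe mapped. Its first probe read 9.80 on the contralateral, 9.57 on the ipsilateral and 9.60 on the control array. The second read 4.68, 4.80 and 4.99. The first probe gave ratios to control of 0.20 and -0.02, and the second gave -0.31 and -0.19.

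The pair of probes thus differed in sign in the contralateral to control ratio, and also contralateral to ipsilateral, at 0.22 and -0.12. The gap of 0.51 between them contralateral to control was larger than the median gap of 0.14 over 2491 clearly read named genes with several probes and near their 90th percentile of 0.53. A difference of sign was common, at 40.0% of those genes. Averaged, Ryr2 had ratios of -0.06 ± 0.23 contralateral to control (0.20 from its brightest probe alone), -0.11 ± 0.23 ipsilateral to control and 0.05 ± 0.24 contralateral to ipsilateral (0.22 from the brightest probe), and it did not change.

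Atp2a2 encodes SERCA2, the pump that refills the endoplasmic reticulum in nearly all cells. It was read by 3 probes and 21 spots, the best replicated of the 8 genes, and 2 of the spots were left out as outliers. The probe levels were 14.15, 14.10 and 14.15 for the first, 14.45, 14.34 and 14.41 for the second and 14.49, 14.46 and 14.47 for the third, in the order contralateral, ipsilateral, control. Within each probe the arrays were nearly level.

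The ratio of Atp2a2 was 0.02 ± 0.20 contralateral to control (-0.13 with no scaling), -0.05 ± 0.20 ipsilateral to control (-0.58 with no scaling) and 0.07 ± 0.20 contralateral to ipsilateral (0.45 with no scaling). The 3 probes lay within 0.05, 0.06 and 0.08 of each other in these comparisons, against median gaps of 0.14, 0.16 and 0.12 over the same 2491 genes. Atp2a2 did not change by any probe.

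Atp2a3 encodes SERCA3, a pump with a lower affinity for calcium that in brain is best known from Purkinje cells. Its first probe read 12.29, 12.27 and 12.22 and its second 6.50, 6.31 and 6.60, in the same order. The first probe gave ratios to control of 0.07 and 0.05, and the second -0.10 and -0.29, which is again a difference in sign. The gene's ratios were -0.02 ± 0.21 contralateral to control (0.07 from the brightest probe alone), -0.12 ± 0.21 ipsilateral to control (0.05 from the brightest probe) and 0.10 ± 0.21 contralateral to ipsilateral (0.02 from the brightest probe), and none was a change.

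Atp2b1 encodes PMCA1, the plasma membrane pump of nearly all cells. It read 8.46 on the contralateral, 8.49 on the ipsilateral and 8.49 on the control array, from 1 spot. Its ratios, -0.03 and -0.00 to control and -0.03 contralateral to ipsilateral, lay well within the scanner error of 0.20, and their sign turned with the scaling. Atp2b2 encodes PMCA2, a fast pump that is dense in the dendrites of Purkinje cells, and it read 13.70, 13.63 and 13.62 from 1 spot. Its ratios were 0.08 and 0.00 to control and 0.07 contralateral to ipsilateral, each with an error of 0.20. The ratios of Atp2b2 to control were -0.08 and -0.53 with no scaling.

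**Figure D4:**
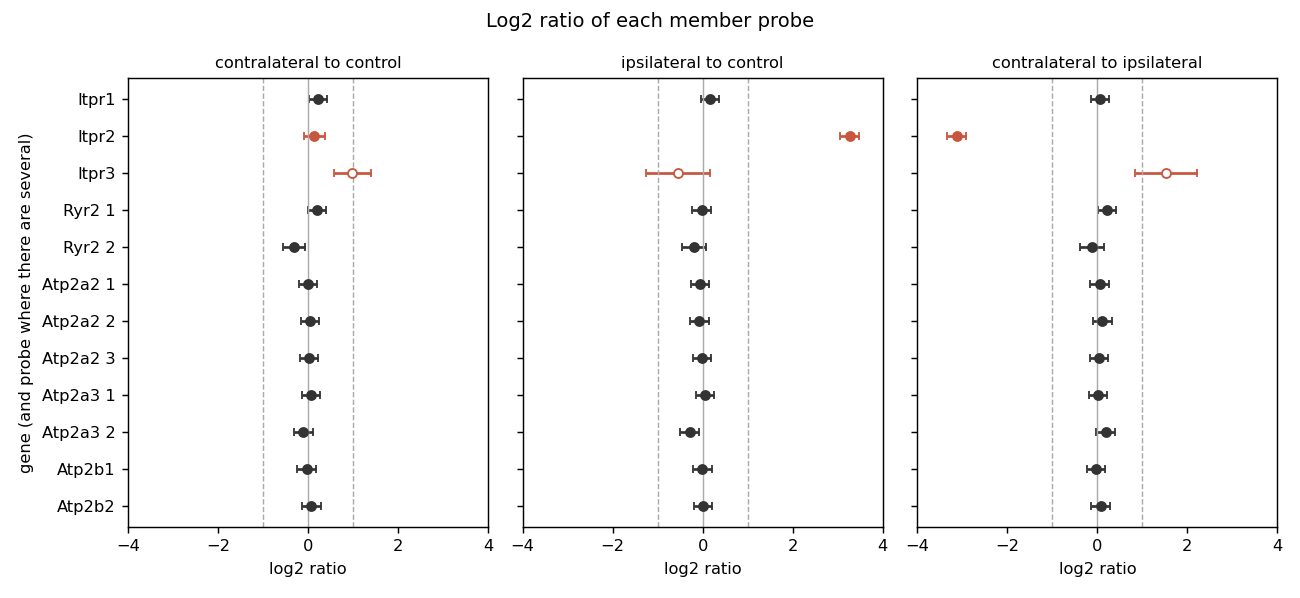
Log2 ratio (horizontal axis) of each probe in the 3 comparisons, with the scanner error as bars, the threshold as dashed lines and open symbols where an array was not well above background. Only Itpr2 (3.27 and -3.12) and Itpr3 (1.53, a dim reading that was -0.18 with normexp) lie past the threshold; ratios near 0 turn sign with the scaling.

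Counted over the 8 genes, 0 were above 1 and 0 below -1 in the contralateral to control ratio. Among the 13356 detected named genes the shares were 2.21% above and 3.26% below. In the ipsilateral to control ratio 1 gene was above 1, Itpr2, and 0 were below -1, beside 5.32% and 1.78% of the detected named genes. In the contralateral to ipsilateral ratio 1 gene was above 1, Itpr3, and 1 below -1, Itpr2, beside 1.12% and 5.68%. Since Itpr2 was known for this ratio when the list was made, nothing is read from its counts.

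The median ratio of the 8 genes was 0.05 contralateral to control, -0.03 ipsilateral to control and 0.06 contralateral to ipsilateral. Over the detected named genes it was -0.00, 0.03 and -0.01. Without Itpr2 and Itpr3 the other 6 genes ran from -0.06 to 0.22, from -0.12 to 0.16 and from -0.03 to 0.10. The range from the 5th to the 95th percentile of clearly read named genes was -0.45 to 0.39, -0.40 to 0.59 and -0.49 to 0.21, so these 6 genes lay inside it in each comparison.

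When the genes were ordered by ratio in the main setting, Itpr3 was left out, since 2 of its 3 readings were not well above background. In the contralateral to control ratio no neighbours in the order differed beyond the error of their gap. In the ipsilateral to control ratio only Itpr2 stood apart, by 3.10 above Itpr1 with an error of 0.30. In the contralateral to ipsilateral ratio only Itpr2 stood apart, 3.10 below Atp2b1 with an error of 0.30. Nothing is read from either gap, since Itpr2 was known when the list was made and the error is that of the scanner alone.

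The balance of rises and falls over the detected named genes depended on the scaling. In the main setting 295 genes were above 1 and 435 below -1 in the contralateral to control ratio, 711 and 238 in the ipsilateral to control ratio, and 149 and 759 in the contralateral to ipsilateral ratio. The share of changes that were rises was 40.4%, 74.9% and 16.4%. It was 29.0%, 30.6% and 37.2% with no scaling and 47.0%, 53.0% and 43.2% with quantile normalization, while with normexp it was 56.6%, 86.3% and 15%. With normexp far fewer genes passed the threshold, 30 above and 23 below, 63 and 10, and 3 and 17 in the 3 comparisons. With 50 added to the signal they were 35 and 37, 51 and 26, and 16 and 22, a share of rises of 48.6%, 66.2% and 42.1%. With no scaling the median of the detected named genes was -0.15, -0.51 and 0.37, and with normexp it was 0.12 in the ipsilateral to control ratio. Relative to that median, Itpr1 stayed between 0.12 and 0.22, between 0.02 and 0.15 and between 0.07 and 0.14 in the 3 comparisons.

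Reading from 1 spot went with more changes over the whole array. Of the 9060 genes read from 1 spot, 6.35%, 8.42% and 8.07% passed the threshold in the contralateral to control, ipsilateral to control and contralateral to ipsilateral ratios. Of the 4296 genes read from more spots, 3.61%, 4.33% and 4.12% did. The genes read from 1 spot also had a lower median signal, 7.77 against 8.34 on the contralateral array. Of the 4 calcium channel and pump genes read from 1 spot, Itpr2 and Itpr3 passed the threshold and Atp2b1 and Atp2b2 did not. Nothing is read from this, since Itpr2 was known when the list was made and Itpr3 passed only by a dim reading. Where a probe was printed several times, the median SD between its spots was 0.05 on each array, over 1483 probes.

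Genes that make, bind or remove IP3 were read next. Here and below, 3 medians in a row are contralateral to control, ipsilateral to control and contralateral to ipsilateral, 3 levels or summed signals are contralateral, ipsilateral and control, and a pair of ratios to control gives the contralateral one first. Of 17 genes for IP3 production, which take the signal from receptor to phospholipase C, 17 had a probe and 15 were detected. Their median ratio was -0.08 contralateral to control, -0.05 ipsilateral to control and 0.04 contralateral to ipsilateral. The lowest ratios among clearly read genes were -0.38 for Plcb1, a phospholipase C, in the contralateral to control ratio and -0.46 for Gnaq, the G protein subunit that activates it, in the ipsilateral to control ratio. The gene past the threshold was Plcb2, below -1 in both contralateral ratios but too dim on the contralateral array to count as clearly read; it and the other dim genes named for such counts were chosen after their values were seen.

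Of 18 genes that remove IP3 or bind its receptors, 15 had a probe and all 15 were detected, with medians of -0.00, -0.02 and 0.02. Car8, a protein of Purkinje cells that binds the type 1 IP3 receptor and lowers its affinity for IP3, had the highest signal in the list's sum, at 15.74 on the contralateral, 15.75 on the ipsilateral and 15.60 on the control array. Its ratios of 0.14 and 0.15 to control were close to those of Itpr1. Bcl2, which binds IP3 receptors and lowers calcium release, had the lowest ratios to control among the clearly read genes, -0.32 and -0.42. Itpkb, an IP3 kinase gene, was counted below -1 contralateral to ipsilateral. It has a dim probe, so the size of that ratio is not known.

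Ryanodine receptor partners had a probe for 14 of 16 genes, 13 detected, with medians of 0.09, 0.08 and 0.01 and 0 changes. Jph1, a junctophilin that ties the plasma membrane to the store, was lowest in the ipsilateral to control ratio at -0.62 and highest in the contralateral to ipsilateral ratio at 0.48. Of 12 other calcium pumps and pump regulators all had a probe and 9 were detected, with medians of 0.02, 0.04 and 0.02. Atp2a1, the SERCA pump best known from fast muscle, was highest contralateral to control at 0.57, and Pln, the inhibitor of SERCA2, was highest ipsilateral to control at 0.35. Atp2b4, a PMCA gene, was counted below -1 contralateral to control by a contralateral reading not above background, so no ratio is given.

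Store-operated entry and TRPC channels, which let calcium in when the store is low or phospholipase C is active, had a probe for 11 of 12 genes, all detected, with medians of 0.03, 0.05 and -0.00. None changed. Among the clearly read genes the channel gene Orai1 was highest contralateral to control at 0.39, Trpc6 highest ipsilateral to control at 0.43, and Trpc5 lowest in both at -0.30 and -0.38.

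Sodium-calcium exchangers, which expel calcium against the sodium gradient, had a probe for 7 of 9 genes, all detected, with medians of 0.10, 0.20 and 0.03. Slc8a3 read 3.92 on the contralateral, 4.96 on the ipsilateral and 4.19 on the control array. It was the only clearly read gene of the calcium lists that changed, at -1.04 ± 0.36 contralateral to ipsilateral, with 0.77 ± 0.31 ipsilateral to control. It was read from 1 spot, and its ratio passed the threshold by less than its scanner error. Slc24a1 was counted above 1 in both ratios to control by readings that were not well above background on the ipsilateral and control arrays, so no ratio is given. Slc8a2, an exchanger of neurons, was lowest to control at -0.53 and -0.64.

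Mitochondrial calcium uptake had a probe for 12 of 14 genes, all detected, with medians of 0.06, 0.01 and 0.06 and 0 changes; Mcu, the pore of the uniporter, was lowest ipsilateral to control at -0.33. The 18 calcium buffers of cytosol and store were all detected, with medians of -0.04, -0.03 and 0.02 and 0 changes. Among the clearly read ones Pvalb, a fast buffer of Purkinje cells and interneurons, was highest to control at 0.21 and 0.26, and Casq1, a store buffer, lowest at -0.51 and -0.32. The 19 calcium-dependent kinases and phosphatases were all detected, with medians of 0.11, 0.05 and 0.08 and 0 changes. Among the clearly read genes the highest ratios were 0.24 for Nfatc1 contralateral to control and 0.21 for Nfatc3 ipsilateral to control, both transcription factors that calcineurin activates.

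Over the 9 calcium lists the median farthest from 0 was the 0.20 of the exchangers ipsilateral to control. With no scaling the medians moved with that of the detected named genes, and all 9 were then below 0 in both ratios to control. The medians of IP3 production turned above 0 to control with normexp.

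**Figure D5:**
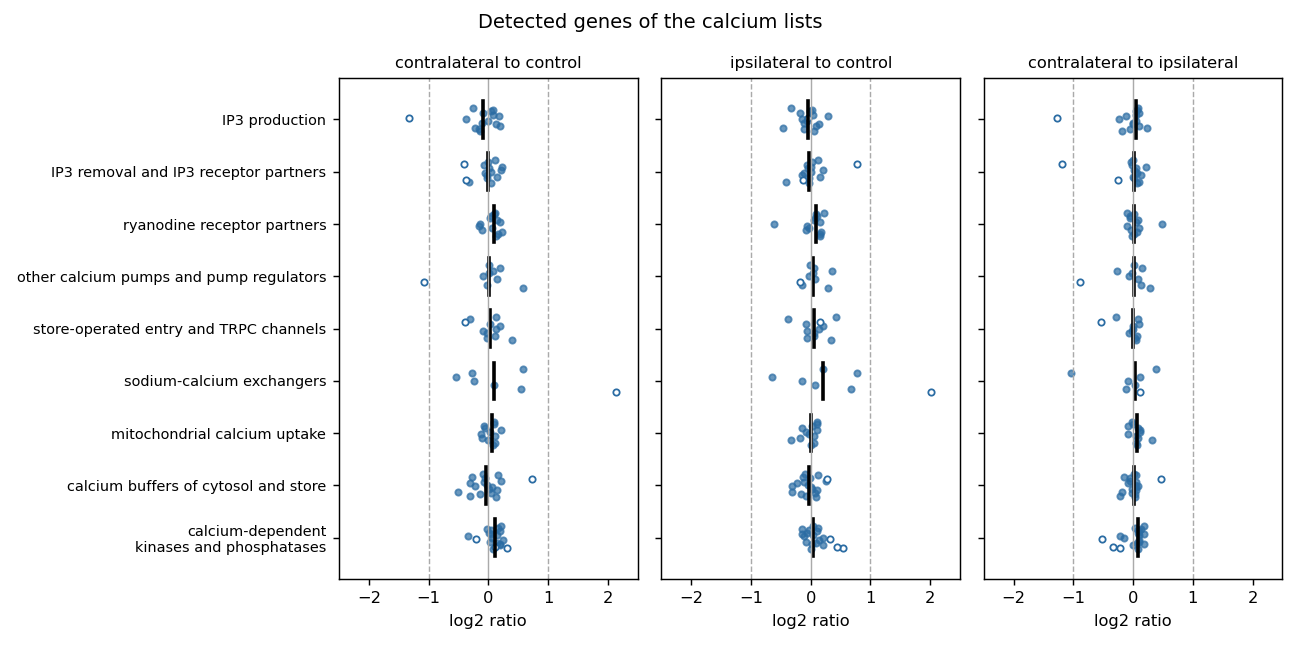
Log2 ratio (horizontal axis) of the detected genes of the 9 calcium lists in the 3 comparisons; filled points are clearly read genes, open points the others, black bars the list medians and dashed lines the threshold. Of the filled points only Slc8a3, at -1.04 ± 0.36 contralateral to ipsilateral from 1 spot, lies past the threshold. Medians to control turn below 0 with no scaling.

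Markers of some other cells that the dissected tissue could hold differed more between the arrays. Of 15 choroid plexus genes 14 had a probe and 13 were detected. Their summed signal was 12077 on the contralateral, 78954 on the ipsilateral and 36068 on the control array. Most of each sum came from Ttr, so the sums mainly follow that gene. Cldn2 was not above background on any array. Ttr, the transthyretin gene, read 13.27 on the contralateral, 16.20 on the ipsilateral and 15.01 on the control array. Like Itpr2 it was highest on the ipsilateral array, but unlike Itpr2 it was lower on the contralateral than on the control array.

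The median ratio of the choroid plexus genes was -0.60 contralateral to control, 0.45 ipsilateral to control (-0.08 with no scaling) and -0.92 contralateral to ipsilateral. Contralateral to control, 4 genes fell below -1, Ttr at -1.73, Slc4a5 at -2.12, Sostdc1 at -1.98 and Kl with a dim probe. Ipsilateral to control, Ttr was above 1 at 1.19 and Slc4a5 below -1 at -1.20. Contralateral to ipsilateral, 6 genes were below -1, Ttr at -2.93, Sostdc1 at -2.89, Folr1 at -1.79, Aqp1 at -1.21, Trpv4 at -1.15 and the dim Kl. The ratio of Itpr2 in that comparison, -3.12 ± 0.21, lay beyond all of them in the main setting. It did not stand clearly apart from Ttr and Sostdc1, whose scanner errors were 0.20 and 0.21. The part of choroid plexus content in the ratio of Itpr2 was not tested.

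Leptomeningeal markers, all 11 detected, had a summed signal of 11104, 14472 and 17001 in the same order of arrays, led by Col1a2. Their medians were -0.58 contralateral to control, -0.24 ipsilateral to control and -0.32 contralateral to ipsilateral (0.07 with no scaling). Col1a1 was past the threshold, at -1.26 contralateral to control. Endothelial and pericyte markers, all 12 detected and led by Slco1c1, summed to 8446, 8663 and 10499, with medians of -0.26, -0.18 and -0.05 (0.33 with no scaling) and 0 changes.

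Microglia and macrophage markers, all 11 detected and led by C1qb, summed to 14360 on the contralateral, 18305 on the ipsilateral and 10699 on the control array. Their medians were 0.18, 0.54 and -0.33 (0.03, 0.01 and 0.05 with no scaling). Cx3cr1, the fractalkine receptor, read 11.20, 11.69 and 10.42 and was above 1 ipsilateral to control, at 1.27. Mrc1 was counted below -1 in both contralateral ratios by readings not above background on both MCAO arrays, so no ratio is given. The part of these cells in the ipsilateral level of Itpr2 was not tested.

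Of 10 neutrophil and lymphocyte markers 8 had a probe and 7 were detected, with a summed signal of 343, 406 and 280, led by Nkg7, and with Cd3e not above background on any array. Their medians were 0.16, 0.74 and -0.20 (0.18 with no scaling). S100a9 was above 1 ipsilateral to control, at 1.04, as was Cd79b, a dim probe that was also above 1 contralateral to control. Cd3g, also dim, was below -1 in both contralateral ratios.

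Granule cell markers, all 13 detected and led by Cbln1, summed to 93570 on the contralateral, 92245 on the ipsilateral and 94087 on the control array. Their medians were -0.06, -0.08 and 0.06, with 0 changes. Markers of molecular layer interneurons and Golgi cells, all 10 detected, summed to 47525, 49007 and 41670, most of it from Pvalb on each array. Their medians were 0.07, 0.06 and 0.01 (the ratios to control were -0.08 and -0.48 with no scaling), with 0 changes. The defining markers of the cerebellar cortex were thus present on all 3 arrays. Oligodendrocyte markers, all 9 detected, summed to 50492, 52382 and 53867 with medians of -0.16, -0.20 and -0.02 (0.36 with no scaling) and 0 changes.

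Of 11 forebrain neuron markers 7 were detected, with a summed signal of 2669 on the contralateral, 1791 on the ipsilateral and 1703 on the control array, led by Neurod6. Tbr1, Rasgrf2 and Ddn were not above background on any array. The medians were 0.43, 0.28 (-0.26 with no scaling) and -0.04 (0.34 with no scaling). Cck, a neuropeptide gene, read 9.91, 6.63 and 6.35 and was above 1 in both contralateral ratios, at 3.56 to control and 3.28 to ipsilateral. Nrgn, a calmodulin-binding protein of forebrain neurons, was above 1 in the same ratios, at 1.83 and 2.04.

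Brainstem and deep nuclei markers had a probe for 9 of 10 genes, 6 detected, and summed to 1955, 1744 and 2027, led by Nefh. Hoxb5, Hoxc4 and Chat were not above background on any array. Their medians were -0.00, -0.17 and -0.05, and the genes past the threshold, Slc6a2, Dbh and Tph2, were all dim on at least 1 array. Smooth muscle markers, all 7 detected and led by Mylk, summed to 1481, 1583 and 1630 with medians of -0.18, -0.05 and -0.18 (0.20 with no scaling), and Cnn1 and Lmod1, past the threshold, were dim.

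Skeletal muscle markers were read because Ryr1 and Atp2a1 are best known from that tissue. Of 10 genes 8 were detected, with a summed signal of 271, 343 and 311, led by Tnni2, and Myh2 and Myh4 were not above background on any array. Their medians were -0.35, -0.00 and -0.26 (0.13 with no scaling). Acta1 was counted below -1 in both contralateral ratios by readings not above background on both MCAO arrays, so no ratio is given. None of these lists was used to name cells, and their part in the ratios of the calcium genes was not tested.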

How the data were processed

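RNA of the 3 pools was labelled with Cy3 and hybridised to 1-colour Agilent SurePrint G3 Rat arrays on 1 slide, read in 1 scan. With 1 array per group, an effect of dissection, extraction, labelling or array cannot be told apart from the group. The ipsilateral sample was the right side and the others the left, so side cannot be told apart from group in either of its ratios. Labels name a NucleoSpin kit for the extraction and the methods name TRIzol. The deposited files give the intensity of each spot as read by the authors with Agilent Feature Extraction 12.1.0.3. Their processed signal is background-subtracted and detrended within the array. The authors' value table, also intensity on a linear scale, was this signal times 1 factor per array (1.12, 1.45 and 1.04 for contralateral, ipsilateral and control); the methods do not say whether these factors are the normalization to control samples they mention.

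The processed signal was taken to log2 and shifted to a common 75th percentile. Population and non-uniformity outliers, 759 spots, were left out, spots were averaged per probe and probes per gene. Probes were grouped by accession through the RefSeq gene table of GRCr8, which matched 17622 of 39957 accessions. It was used for names only, since the array header names rn4. A gene was detected when a probe was well above background on at least 1 array. The scanner error covers neither rats nor hybridisations. No test was run with 1 array per group.

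The members and all lists were chosen with earlier results of these data known. Of each list the text names genes past the threshold that were clearly read (each probe well above background on each array), otherwise some of those with the highest or lowest ratio, and the 5 clearly read genes nearest to Itpr2 by Euclidean distance. Any other gene was named with its values in view. Results that need the name of certain list genes were left out. Settings tried in place of the main one were quantile normalization, scaling to the median, no scaling, normexp with an offset of 50 (on the median signal, as the files used held no mean signal), the deposited table, 50 added to the signal, the brightest probe, outliers kept, all named genes and a stricter filter. The Itpr2 spot left out was added after seeing the data. Python 3.11.15, numpy 2.4.6, pandas 2.3.3, scipy 1.17.1, matplotlib 3.10.9, R 4.3.3 and limma 3.58.1 were used, and the steps were tested on simulated data. Probe and protein sequences were not used here.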

Additional observations from a re-analysis of the deposited data

Results flagged for a closer look

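Features outside the comparisons carried signal beside the Itpr2 spot on the ipsilateral array. A spot for a probe with no gene name read 9.76 in scaled log2 signal there, against 2.41 on the control array. A spike-in control spot read 9.90 there, against 2.70 on the control array. Both were picked out because they lie above the control array in data that no comparison uses. Their part in the reading of Itpr2 was not tested.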

How the results depend on the processing

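Of 192 ratios of the 8 genes under the alternatives, 168 kept within the scanner error of the main value, 23 moved beyond it (14 of them with no scaling) and 1 that was past the threshold changed sign. Ratios short of the threshold changed sign too, such as Itpr1 ipsilateral to control (-0.37 with no scaling). The ipsilateral to control ratio of Itpr2 was 2.73 with no scaling, 2.13 with normexp and 2.40 with 50 added to the signal, and its contralateral to ipsilateral ratio was -2.74, -2.03 and -2.33. Itpr3 reversed in the contralateral to ipsilateral ratio, to -0.18 with normexp. The cause was not tested.

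The count above 1 contralateral to control was 1 with scaling to the median and 1 with quantile normalization (Itpr3). The count below -1 ipsilateral to control was 1 with no scaling and 1 with quantile normalization, from Itpr3 readings not well above background on either array. The count above 1 contralateral to ipsilateral was 0 with normexp, 0 with 50 added and 0 among genes whose probes were all well above background on each array, which leaves Itpr3 out. Without the Itpr2 spot, an alternative chosen after seeing the data, the count above 1 ipsilateral to control was 0 and that below -1 contralateral to ipsilateral was 0, by construction, since no other spot reads the gene. Of 60 percentages of named genes 27 moved, and of 552 list medians 61 moved, 46 of them with no scaling. No leave-one-out was possible with 1 array per group. No paired analysis was possible because each group was 1 array of pooled rats. Signal over background limits Itpr3.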
